A study of Mus musculus with 4 samples.

Results

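The genes that load and present peptides on major histocompatibility complex (MHC) class II were examined in RNA from mouse colonic epithelial cells. They were the 8 rows of the deposited gene table whose symbol was Ciita, H2-Aa, H2-Ab1, H2-Eb1, Cd74, H2-DMa, H2-DMb1 or H2-DMb2, out of 50600 rows in all. All 8 passed the filter on low counts. There were 2 libraries from Mettl14 knockout (KO) cells and 2 from wild-type (WT) cells, all labelled as primary cells of C57BL/6 mice. The METTL14 protein works with METTL3 to place N6-methyladenosine (m6A) on mRNA, and the comparison asks which transcripts differ when it is deleted. The labels used here give neither the way the deletion was made, nor the cells it reached, nor whether animals were pooled. They state no age in words, and each title carries a number of its own and the tag C-2W, which is not explained. Xist and Y-linked transcripts showed 1 female and 1 male library in each group: KO replicate 1 and WT replicate 2 were female, KO replicate 2 and WT replicate 1 male. The libraries of a group therefore came from different animals, and their spread includes sex as well as technical variation.

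MHC class II molecules show peptides from endosomes to CD4 T cells. Each is a pair of an alpha and a beta chain that is assembled on the invariant chain, the product of Cd74, which fills the groove until proteases trim it. H2-DM, a relative of the class II molecules, then releases the remaining fragment and lets stable peptides bind. Transcription of all of these genes depends on the coactivator CIITA, which docks on factors bound to a conserved promoter module of an X box and a Y box. Dendritic cells, macrophages and B cells make class II constitutively, and intestinal epithelium can make it after exposure to interferon gamma.

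Total counts per library ran from 22136440 to 24991060, and the 8 genes took 0.0725% and 0.0705% of them in KO and 0.0215% and 0.0401% in WT. A count of 0 allows up to 3 counts, or 0.117 to 0.145 CPM (counts per 1000000), for counting error only. CPM were scaled by TMM, the trimmed mean of M-values. Mettl14 itself stood at 3.99 and 3.94 CPM in the KO libraries, against 11.7 and 8.67 CPM in the WT libraries (log2 fold change -1.36, edgeR adjusted p = 0.0503). Epithelial markers were abundant throughout, with Krt8, a keratin of simple epithelia, at 2250 and 1953 CPM in KO and 2380 and 3249 CPM in WT.

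Summed over the 8 genes, class II transcripts were at 730 and 626 CPM in the KO libraries, against 229 and 422 CPM in the WT libraries. All 8 had a positive log2 fold change in KO over WT, between 0.53 and 1.15 with a median of 0.99, where the median of all 14861 genes tested was -0.01. None of them passed an adjusted p of 0.05 in edgeR's quasi-likelihood test, in which 1.72% of all genes tested were called higher and 1.9% lower. At an unadjusted p under 0.05, 6 of the 8 were higher, against 14.8% of all genes. DESeq2 called 5 of the 8 higher (H2-Aa, H2-Ab1, H2-Eb1, Cd74 and H2-DMb1), with 6.94% of all its tested genes called higher, and limma-voom called 0, against 2.02%. With library size scaling or with no filter on low counts edgeR called H2-DMb1 alone, against 4.06% and 3.54% of all genes. In 6 of the 8 both KO libraries lay above both WT libraries, which was so for 31.1% of all genes tested. By CPM, WT replicate 1 was the lowest library for each of the 8, and KO replicate 1 the highest. The share of all genes with this pattern was not counted. The summed dendritic cell, macrophage, pan-leukocyte and T cell markers, given below, had the same highest and lowest library. Permuting 2 libraries against 2 cannot give a two-sided p below 0.333.

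**Figure D1:**
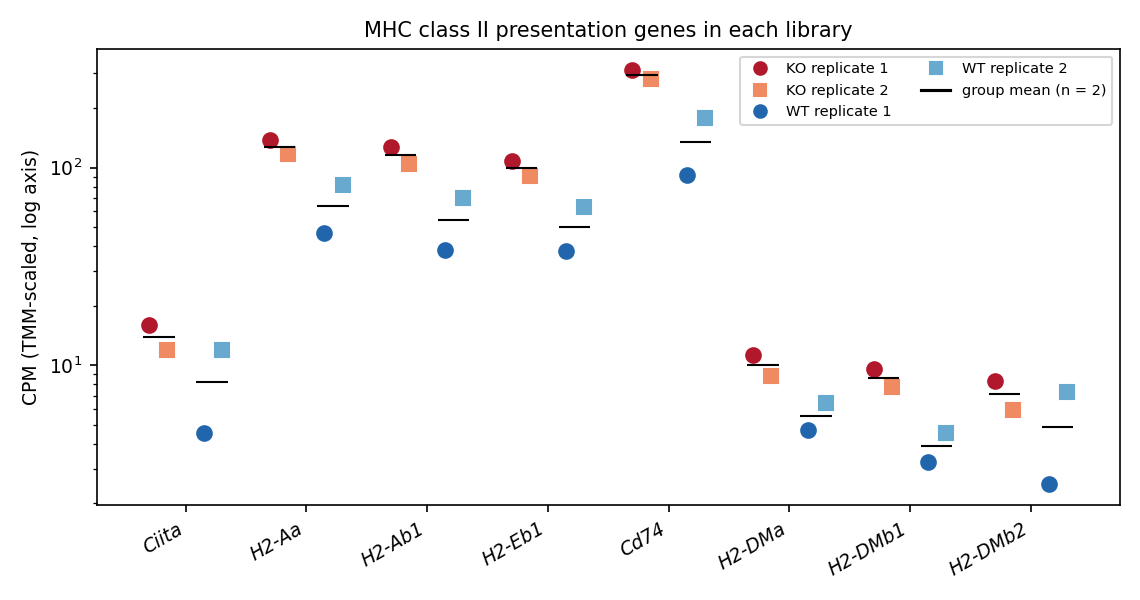
CPM after TMM scaling (log axis) of the 8 class II presentation genes in each of the 2 KO and 2 WT libraries, with black lines at the group means. KO points lie above both WT points for 6 genes; for Ciita and H2-DMb2 the WT replicate 2 point, at 12.0 and 7.28 CPM, reaches into the KO range.

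Ciita, the regulator (ENSMUSG00000022504, GRCm38 chromosome 16, 10480059 to 10528418, plus strand), had 359 and 305 counts in KO and 94 and 285 counts in WT. This was 15.9 and 11.9 CPM in KO, against 4.53 and 12.0 CPM in WT. The groups overlapped, since WT replicate 2 matched KO replicate 2 and only WT replicate 1 was low. The log2 fold change was 0.75 (SE 0.49, edgeR adjusted p = 0.355), and it was 0.20 without WT replicate 1 and 1.65 (adjusted p = 0.0258) without WT replicate 2. Ciita overlaps the gene Dexi on the other strand, which stood at 6.87 and 6.16 CPM in KO and 4.96 and 6.10 CPM in WT. Strand use in the counting is not given in the sources used here, so reads of the shared stretch cannot be told apart.

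H2-Aa and H2-Ab1 encode the alpha and beta chains of I-A, the class II molecule that C57BL/6 mice express. H2-Aa (ENSMUSG00000036594, chromosome 17, 34282744 to 34287823, minus strand) was at 138 and 117 CPM in KO, against 46.9 and 81.6 CPM in WT. Its partner H2-Ab1 (ENSMUSG00000073421, chromosome 17, 34257689 to 34269419, plus strand) was at 127 and 104.6 CPM in KO, against 38.3 and 70.2 CPM in WT. Both KO libraries exceeded both WT libraries for either chain. The log2 fold changes were 0.99 (SE 0.29) for H2-Aa and 1.10 (SE 0.32) for H2-Ab1, with edgeR adjusted p of 0.112 and 0.109. The chains kept close proportions, with 1.09 and 1.12 CPM of H2-Aa per CPM of H2-Ab1 in KO and 1.23 and 1.16 in WT.

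H2-Eb1 encodes the beta chain of I-E (ENSMUSG00000060586, chromosome 17, 34305867 to 34316674, plus strand). It was at 108 and 90.96 CPM in KO, against 37.6 and 62.8 CPM in WT, without overlap (log2 fold change 0.99, SE 0.27, edgeR adjusted p = 0.101). Its alpha chain partner is known to be defective in this strain, and the row of that gene, H2-Ea-ps, had 0 counts in all 4 libraries, which allows up to 0.145 CPM. H2-Eb1 per CPM of H2-Ab1 was 0.851 and 0.87 in KO and 0.984 and 0.896 in WT.

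Cd74 (ENSMUSG00000024610, chromosome 18, 60803848 to 60812652, plus strand) was the most abundant of the 8 in each library. It had 7030 and 7159 counts in KO and 1897 and 4211 counts in WT, or 312 and 279 CPM against 91.4 and 177 CPM. The log2 fold change was 1.14 (SE 0.34, edgeR adjusted p = 0.115), and the groups did not overlap. Per kilobase of annotated exon, Cd74 averaged 176 ± 13.8 CPM in KO and 80.0 ± 36.1 CPM in WT (SD, n = 2 each). The 3 chain genes followed on the same per-kilobase scale, in the order H2-Eb1, H2-Ab1, H2-Aa in all 4 libraries. They averaged 51.2 ± 6.27, 45.1 ± 6.2 and 33.6 ± 3.93 CPM in KO and 25.8 ± 9.17, 21.1 ± 8.78 and 16.9 ± 6.46 CPM in WT (SD, n = 2 each). H2-Eb1 and H2-Ab1 overlapped between libraries of a group, and in WT both overlapped H2-Aa. The exon length used here merges all annotated isoforms, at 1944 bases for H2-Eb1, 2568 for H2-Ab1 and 3798 for H2-Aa. A principal coding transcript of each had 1669, 1212 and 1128 bases, and on those lengths the order would be reversed.

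The H2-DM genes and Ciita were far lower on this scale. H2-DMb1 averaged 5.13 ± 0.76 CPM per kilobase in KO and 2.31 ± 0.55 in WT, H2-DMb2 4.07 ± 0.96 in KO and 2.80 ± 1.93 in WT, H2-DMa 2.91 ± 0.52 in KO and 1.61 ± 0.36 in WT, and Ciita 1.46 ± 0.3 in KO and 0.87 ± 0.55 in WT (SD, n = 2 each). H2-DMb1 and H2-DMb2 overlapped within each group.

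H2-DMa encodes the alpha chain of H2-DM (ENSMUSG00000037649, chromosome 17, 34119541 to 34139101, plus strand). It had 255 and 225 counts in KO and 97 and 153 counts in WT, or 11.3 and 8.77 CPM against 4.67 and 6.44 CPM. The groups did not overlap, and the log2 fold change was 0.85 (SE 0.25, edgeR adjusted p = 0.105). The annotated span of H2-DMa overlaps Brd2 on the other strand, which was far more abundant and lower in KO, at 129 and 122 CPM against 168 and 158 CPM in WT (log2 fold change -0.38, edgeR adjusted p = 0.113).

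The beta chain has 2 neighbouring genes. H2-DMb1 (ENSMUSG00000079547, chromosome 17, 34153072 to 34160230, plus strand) was at 9.53 and 7.72 CPM in KO, against 3.23 and 4.55 CPM in WT, and had the largest fold change and the lowest adjusted p of the 8 (log2 fold change 1.15, SE 0.26, edgeR adjusted p = 0.0708). H2-DMb2 (ENSMUSG00000037548, chromosome 17, 34143307 to 34151555, plus strand) was at 8.29 and 5.92 CPM in KO, against 2.51 and 7.28 CPM in WT, and had the smallest (log2 fold change 0.53, SE 0.54, edgeR adjusted p = 0.544). The groups were apart for H2-DMb1 and overlapped for H2-DMb2, which in WT replicate 2 exceeded KO replicate 2. Without WT replicate 1 the log2 fold change of H2-DMb2 was -0.05, against 0.91 for H2-DMb1. There were 0.87 and 0.768 CPM of H2-DMb2 per CPM of H2-DMb1 in KO and 0.776 and 1.6 in WT, so that WT replicate 2 stood apart from the other libraries. Their transcripts were 83.5% identical over 1413 aligned bases, and 27.2% of the 50-base windows of H2-DMb1 occurred unchanged in H2-DMb2. Part of the reads could therefore have been assigned to either gene. Summed into 1 row they had a log2 fold change of 0.84 (edgeR adjusted p = 0.22), a fit added after the data were seen.

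The makeup of the 8 varied between libraries, and for some genes the intervals of their shares did not overlap. Cd74 took its largest share in KO replicate 2, at 42.7% (95% Wilson interval 41.9% to 43.4%) and 44.6% (43.8% to 45.3%) in KO and 39.9% (38.5% to 41.3%) and 42% (41% to 43%) in WT. H2-DMb2 and Ciita took theirs in WT replicate 2. H2-DMb2 was 1.72% of the counts of the 8 genes there (1.49% to 2%), against 1.14% (0.984% to 1.31%) and 0.946% (0.808% to 1.11%) in KO and 1.09% (0.835% to 1.43%) in WT replicate 1. Ciita was 2.84% there (2.53% to 3.19%), against 2.18% (1.97% to 2.41%) and 1.9% (1.7% to 2.12%) in KO and 1.98% (1.62% to 2.41%) in WT replicate 1. These intervals cover the counting error of reads only. Reads copied by PCR are not independent molecules, so the intervals may be too narrow.

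**Figure D2:**
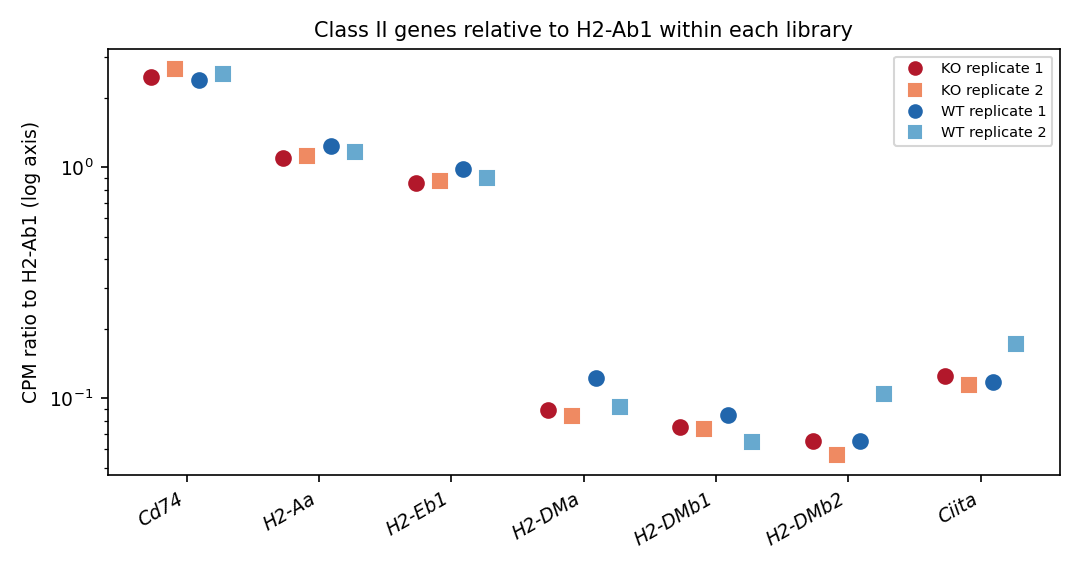
CPM of 7 class II presentation genes divided by the CPM of H2-Ab1 in the same library (log axis), for 2 KO and 2 WT libraries. The ratios of Cd74 lie between 2.39 and 2.67; those of H2-DMb2 and Ciita are highest in WT replicate 2, at 0.104 and 0.171.

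Promoter sequences, from RefSeq on GRCm38.p6, were matched for 5 of the 8 genes. They run from 250 bases before to 50 after an annotated start and are shown because all 8 genes had the same highest and lowest library. The RefSeq starts can differ from the annotated spans given above. Capitals mark the letters AACNGATG (an X box core), ATTGG (a Y box core, CCAAT on the other strand) and TGACGTCA (the cAMP response element), each searched on both strands and chosen after these promoters had been read.
H2-Eb1, chr17:34305617-34305916, plus strand: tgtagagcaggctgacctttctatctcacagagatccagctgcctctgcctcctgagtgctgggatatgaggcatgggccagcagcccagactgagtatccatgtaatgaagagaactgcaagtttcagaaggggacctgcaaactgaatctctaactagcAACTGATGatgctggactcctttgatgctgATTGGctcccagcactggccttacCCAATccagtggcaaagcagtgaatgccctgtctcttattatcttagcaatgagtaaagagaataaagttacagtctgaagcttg
H2-DMb1, chr17:34152941-34153240, plus strand: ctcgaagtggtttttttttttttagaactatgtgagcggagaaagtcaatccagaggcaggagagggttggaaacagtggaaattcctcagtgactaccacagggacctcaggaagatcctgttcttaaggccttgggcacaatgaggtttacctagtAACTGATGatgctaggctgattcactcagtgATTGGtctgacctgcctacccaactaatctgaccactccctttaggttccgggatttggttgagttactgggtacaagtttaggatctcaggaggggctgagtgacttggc
H2-DMb2, chr17:34144999-34145298, plus strand: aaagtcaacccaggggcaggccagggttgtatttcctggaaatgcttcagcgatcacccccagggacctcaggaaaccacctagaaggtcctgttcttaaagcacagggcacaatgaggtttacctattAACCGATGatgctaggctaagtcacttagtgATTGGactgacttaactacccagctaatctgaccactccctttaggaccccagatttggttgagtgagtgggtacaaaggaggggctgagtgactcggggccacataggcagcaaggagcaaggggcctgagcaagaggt
H2-Aa, chr17:34287774-34288073, minus strand: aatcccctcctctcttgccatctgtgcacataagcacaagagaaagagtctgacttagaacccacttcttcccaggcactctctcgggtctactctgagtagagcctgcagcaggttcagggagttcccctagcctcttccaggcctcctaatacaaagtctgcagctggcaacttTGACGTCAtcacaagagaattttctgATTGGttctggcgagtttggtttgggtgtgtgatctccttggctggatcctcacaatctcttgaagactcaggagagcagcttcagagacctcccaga

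The X box core preceded the Y box core by 30 bases in H2-Eb1 and by 31 bases in both H2-DMb1 and H2-DMb2, counted from start to start. H2-Aa held no X box core as spelled here, and its cAMP response element, the sequence that CREB binds, lay 26 bases before its Y box core. Of 32851 promoters in the same table, 2.32% held the X box core, 37.4% the Y box core and 1.79% the cAMP response element. Both cores in this order, 25 to 35 bases apart on a strand, were found in 6 promoters, or 0.0183%. These were H2-Eb1, H2-DMb1, H2-DMb2, the related H2-Eb2, BC051142 and Gm35697. The window of 25 to 35 bases surrounds the 30 and 31 bases given above. The 0.0183% is therefore not independent of H2-Eb1, H2-DMb1 and H2-DMb2. The 2 windows of H2-DMa held 1 Y box core between them and no X box core. They begin at 34122582 and 34125268, inside the annotated span of the gene. No other start of H2-DMa was searched, so this holds for these windows only. H2-DMb1 and H2-DMb2 share the paired cores, and their promoters were 77.0% identical over 270 aligned bases.

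The fold changes were larger among the male libraries than among the female ones for all 8 genes, with 1 library on each side and no test. In the male pair, KO over WT ranged from 1.88-fold for H2-DMa to 3.05-fold for Cd74. In the female pair it ranged from 1.14-fold for H2-DMb2 to 2.1-fold for H2-DMb1. With sex as a covariate, edgeR called 5 of the 8 higher (H2-Aa, H2-Ab1, H2-Eb1, Cd74 and H2-DMb1, with adjusted p from 0.0312 to 0.0482), against 4.68% of all genes. The covariate leaves 1 residual degree of freedom, and sex cannot be told apart from anything else these pairs share. Without WT replicate 2 all 8 were called higher (median log2 fold change 1.51), against 8.11% of all genes. Without WT replicate 1 edgeR called 0 of the 8 (median 0.65) and 3.37% of all genes higher, and 5 of the 8 were higher at an unadjusted p under 0.05, against 14.5% of all genes. On leaving out KO replicate 1 or KO replicate 2, edgeR called 0 of the 8 and 0 of all genes. At an unadjusted p under 0.05, 0 of the 8 were higher without KO replicate 1, against 7.76% of all genes, and 4 without KO replicate 2, against 6.58%.

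**Figure D3:**
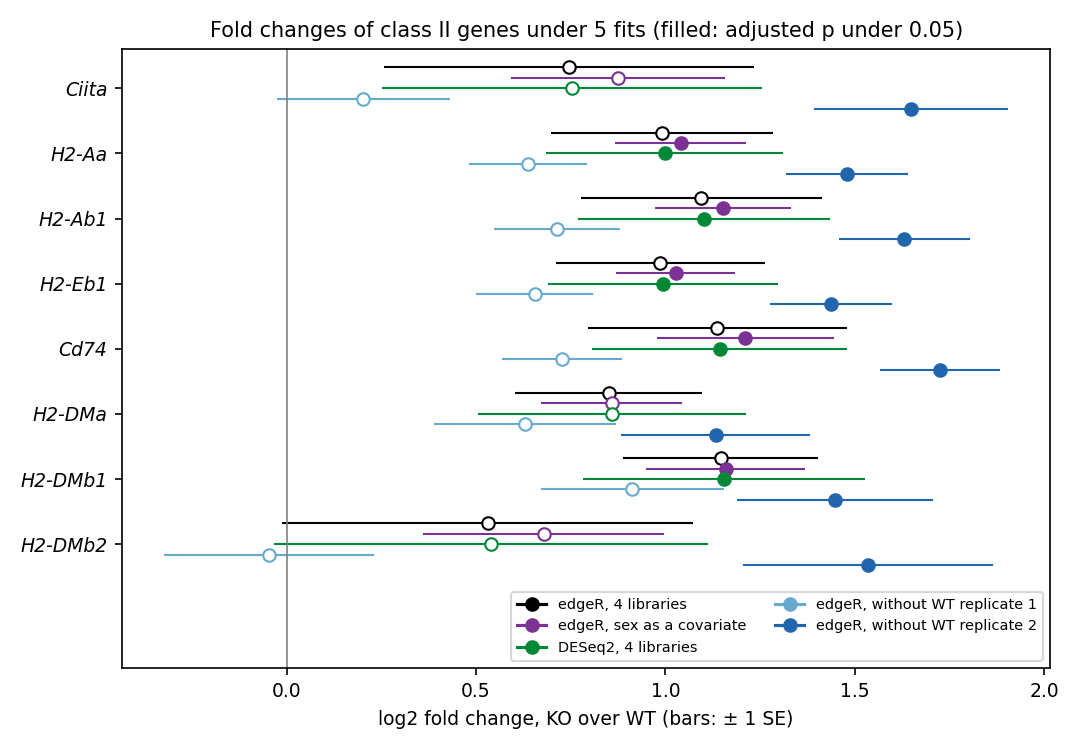
Log2 fold change of KO over WT for the 8 genes under 5 fits, with bars of 1 standard error; filled points passed an adjusted p of 0.05. Points without WT replicate 1 lie lowest, from -0.05 for H2-DMb2 to 0.91 for H2-DMb1, and those without WT replicate 2 highest, from 1.13 for H2-DMa to 1.73 for Cd74.

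Class II transcripts stood beside markers of the immune cells that make them constitutively, at levels that also varied between libraries. In bulk RNA, more cells of a type and more RNA per cell cannot be told apart. All 11 dendritic cell markers had a positive log2 fold change (median 1.10). In 10 both KO libraries lay above both WT libraries, against 31.1% of all genes. Their summed level was 101.2 and 75.7 CPM in KO, against 29.5 and 47.2 CPM in WT. Itgax, which encodes the integrin CD11c, was at 34.2 and 25.9 CPM in KO and 10.7 and 16.8 CPM in WT (log2 fold change 1.13, edgeR adjusted p = 0.079). EdgeR called none of the 11, against 1.72% of all genes called higher, and 6 were higher at an unadjusted p under 0.05, against 14.8%. DESeq2 called 4 higher, against 6.94%, and limma-voom 0, against 2.02%.

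Of 14 macrophage and monocyte markers, 3 rose and 0 fell by edgeR, against 1.72% and 1.9% of all genes. By DESeq2 6 rose and 1 fell, against 6.94% and 7.11%, and by limma-voom 3 rose, against 2.02%. At an unadjusted p under 0.05, 8 were higher and 1 lower, against 14.8% and 15.7%. The list's median log2 fold change was 1.01, and its summed level was 297 and 251 CPM in KO and 157 and 236 CPM in WT. The integrin gene Itgam rose by 1.81 on the log2 scale, the chemokine receptor gene Cx3cr1 by 1.32 and the complement gene C1qa by 1.09 (edgeR adjusted p = 0.0434, 0.0434 and 0.0466). These calls ended on leaving out either KO library, when edgeR called no gene at all.

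B cell markers followed another order. Their summed level was 44.1 and 24.6 CPM in KO, against 15.2 and 52.9 CPM in WT, highest in WT replicate 2. None of the 9 was called by edgeR, DESeq2 or limma-voom, 0 had an unadjusted p under 0.05, and the median log2 fold change was 0.08. Cd79b, a subunit of the B cell receptor, was at 8.47 and 3.98 CPM in KO and 2.70 and 9.05 CPM in WT. H2-DMb2, above, shared with this list a level in WT replicate 2 that exceeded KO replicate 2. The summed neutrophil markers, below, did so too. Ciita was nearly equal in those libraries, at 12.0 CPM in WT replicate 2 and 11.9 CPM in KO replicate 2. H2-Ob encodes the beta chain of H2-O, an inhibitor of H2-DM found mainly in B cells. Its level was also close in those libraries, at 8.38 and 6.63 CPM in KO and 2.89 and 6.90 CPM in WT. The part of B cells in these levels was not tested.

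Summed class II CPM per summed CPM of the dendritic cell markers were 7.22 and 8.27 in KO, against 7.77 and 8.95 in WT, so the groups overlapped. Per macrophage and monocyte markers they were 2.46 and 2.5 in KO, against 1.46 and 1.79 in WT. Per 5 pan-leukocyte markers they were 2.69 and 3.02 in KO, against 1.54 and 2.11 in WT. Ptprc, the pan-leukocyte gene for CD45 and the most abundant of those 5, was at 86.8 and 69.6 CPM in KO and 63.1 and 77.6 CPM in WT, overlapping. None of the markers of the dendritic cell, macrophage or B cell lists was at 0 in all libraries. The part of these cells in the class II levels was not tested. T cell markers summed to 66.3 and 54.2 CPM in KO and 48.3 and 50.5 CPM in WT, and 10 epithelial markers to 8794 and 7877 CPM in KO and 9835 and 11890 CPM in WT. In 7 of these 10 both KO libraries lay below both WT libraries, against 32.2% of all genes. EdgeR called 0 of the 10, and 5 were lower at an unadjusted p under 0.05, against 15.7%. DESeq2 called 4 lower, against 7.11%. Fibroblast markers were high in KO replicate 2, at 31.6 and 257 CPM in KO and 25.4 and 37.0 CPM in WT. Neutrophil markers summed to 142 and 99.4 CPM in KO and 43.2 and 149.5 CPM in WT.

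**Figure D4:**
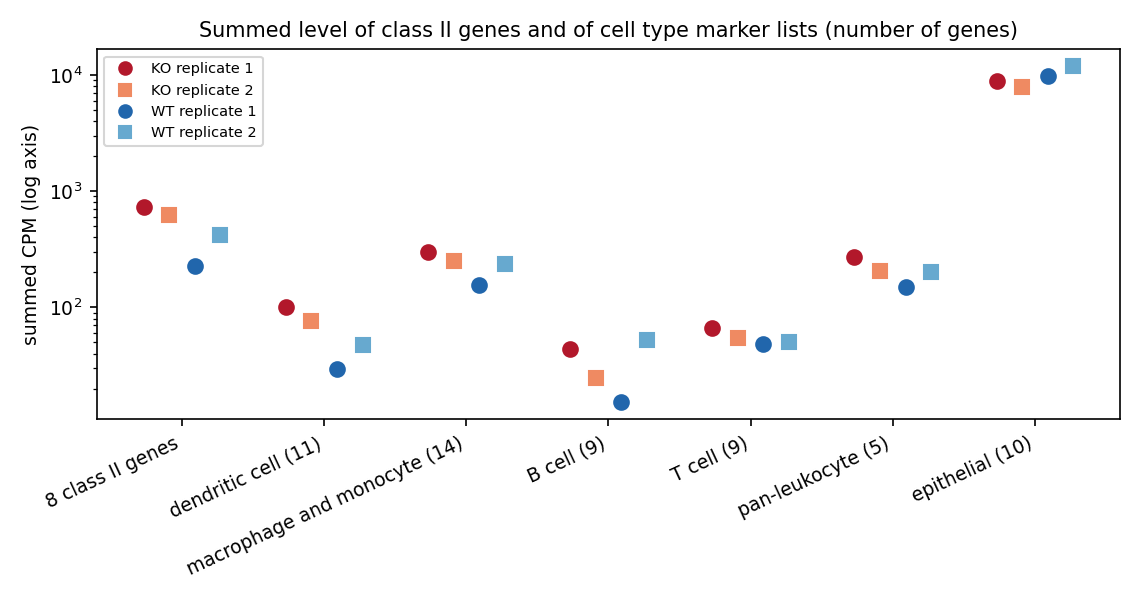
Summed CPM (log axis) of the 8 class II presentation genes and of 6 lists of cell type markers in each of 2 KO and 2 WT libraries. The dendritic cell, macrophage, pan-leukocyte and T cell sums have the same order over the 4 libraries as the class II genes, and the B cell markers are highest in WT replicate 2, at 52.9 CPM.

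Other genes of the class II pathway lay on both sides of 0, with 22 of 40 positive and a median log2 fold change of 0.05. Of 41 listed genes, 40 were tested, of which 2 rose and 0 fell by edgeR, against 1.72% and 1.9% of all genes. DESeq2 called 3 higher and 2 lower (7.11% of all genes lower), limma-voom 2 higher and 1 lower (2.13% lower), and 5 were higher and 7 lower at an unadjusted p under 0.05 (15.7% lower). The further class II chains were low, and none passed the test. H2-Oa, the alpha chain gene of H2-O, was at 3.95 and 3.31 CPM in KO and 1.40 and 3.24 CPM in WT, and H2-Eb2 at 2.53 and 1.75 CPM in KO and 1.11 and 2.99 CPM in WT.

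Among the endosomal enzymes, Ctsh, which encodes the aminopeptidase cathepsin H, rose to 71.3 and 64.3 CPM in KO, against 17.1 and 25.8 CPM in WT (log2 fold change 1.66, SE 0.22, edgeR adjusted p = 0.0444). Ctss encodes cathepsin S, which makes the last cuts in the invariant chain, and was lower at 207 and 219 CPM in KO, against 352 and 360 CPM in WT (log2 fold change -0.74, SE 0.12, edgeR adjusted p = 0.0518). It thus lay in the direction opposite to Cd74, just outside the threshold, and it passed with DESeq2 (adjusted p = 5.56e-05) and with sex as a covariate (edgeR adjusted p = 0.0424). The other abundant proteases of the list were Ctsb at 461 and 492 CPM in KO and 358 and 420 CPM in WT, and Ctsd at 278 and 335 CPM in KO and 326 and 320 CPM in WT. Neither passed the test (edgeR adjusted p = 0.26 and 0.767).

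Among the factors that control Ciita, Irf8, a transcription factor gene of dendritic cells, macrophages and B cells, rose to 76.8 and 67.3 CPM in KO, against 43.8 and 43.0 CPM in WT (log2 fold change 0.73, SE 0.11, edgeR adjusted p = 0.0472). Without KO replicate 1 or without KO replicate 2 neither Irf8 (adjusted p = 0.301 and 0.378) nor Ctsh (0.290 and 0.378) was called, and with relative log expression scaling Irf8 was not (adjusted p = 0.0505, edgeR). The interferon gamma receptor and its kinases showed no call. Its receptor genes Ifngr1 and Ifngr2 had log2 fold changes of -0.23 and -0.31, and the receptor-bound kinase gene Jak1 -0.29 (edgeR adjusted p = 0.552, 0.136 and 0.17). Ifng itself was at 1.29 and 0.702 CPM in KO and 0.771 and 1.47 CPM in WT. The interferon-induced factor gene Irf1 had a log2 fold change of 0.10 (edgeR adjusted p = 0.804). Prdm1, which encodes the Ciita repressor BLIMP-1, was at 17.6 and 12.3 CPM in KO and 25.7 and 27.9 CPM in WT (log2 fold change -0.84, edgeR adjusted p = 0.0769), and passed with DESeq2 (adjusted p = 0.0244) and with sex as a covariate (edgeR adjusted p = 0.0385).

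The promoter-bound factors to which CIITA docks had fold changes of both signs. Creb1, Nfyc and Nfya had log2 fold changes of 0.17, -0.02 and 0.05, none past the test (edgeR adjusted p = 0.332, 0.923 and 0.829). Within the regulatory factor X complex, Rfx5 was at 11.8 and 12.6 CPM in KO and 6.46 and 7.58 CPM in WT, while its partner Rfxank was at 14.1 and 13.6 CPM in KO and 19.3 and 25.6 CPM in WT. Their log2 fold changes were 0.79 and -0.70 (edgeR adjusted p = 0.0632 and 0.0829), neither past the threshold, while DESeq2 called Rfx5 (adjusted p = 0.0366). Of the ubiquitin ligases that remove class II from the surface, March1 had a log2 fold change of 0.78 and the more abundant March8 -0.53 (edgeR adjusted p = 0.264 and 0.11), and Cd83, which counters this removal, 0.30. The co-stimulatory gene Cd86 was at 5.05 and 4.40 CPM in KO and 1.88 and 2.57 CPM in WT (log2 fold change 1.08, edgeR adjusted p = 0.0868). Cd40 and Cd274, which were listed beside Cd86 but differ from it in function, had log2 fold changes of 0.91 and -0.05.

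**Figure D5:**
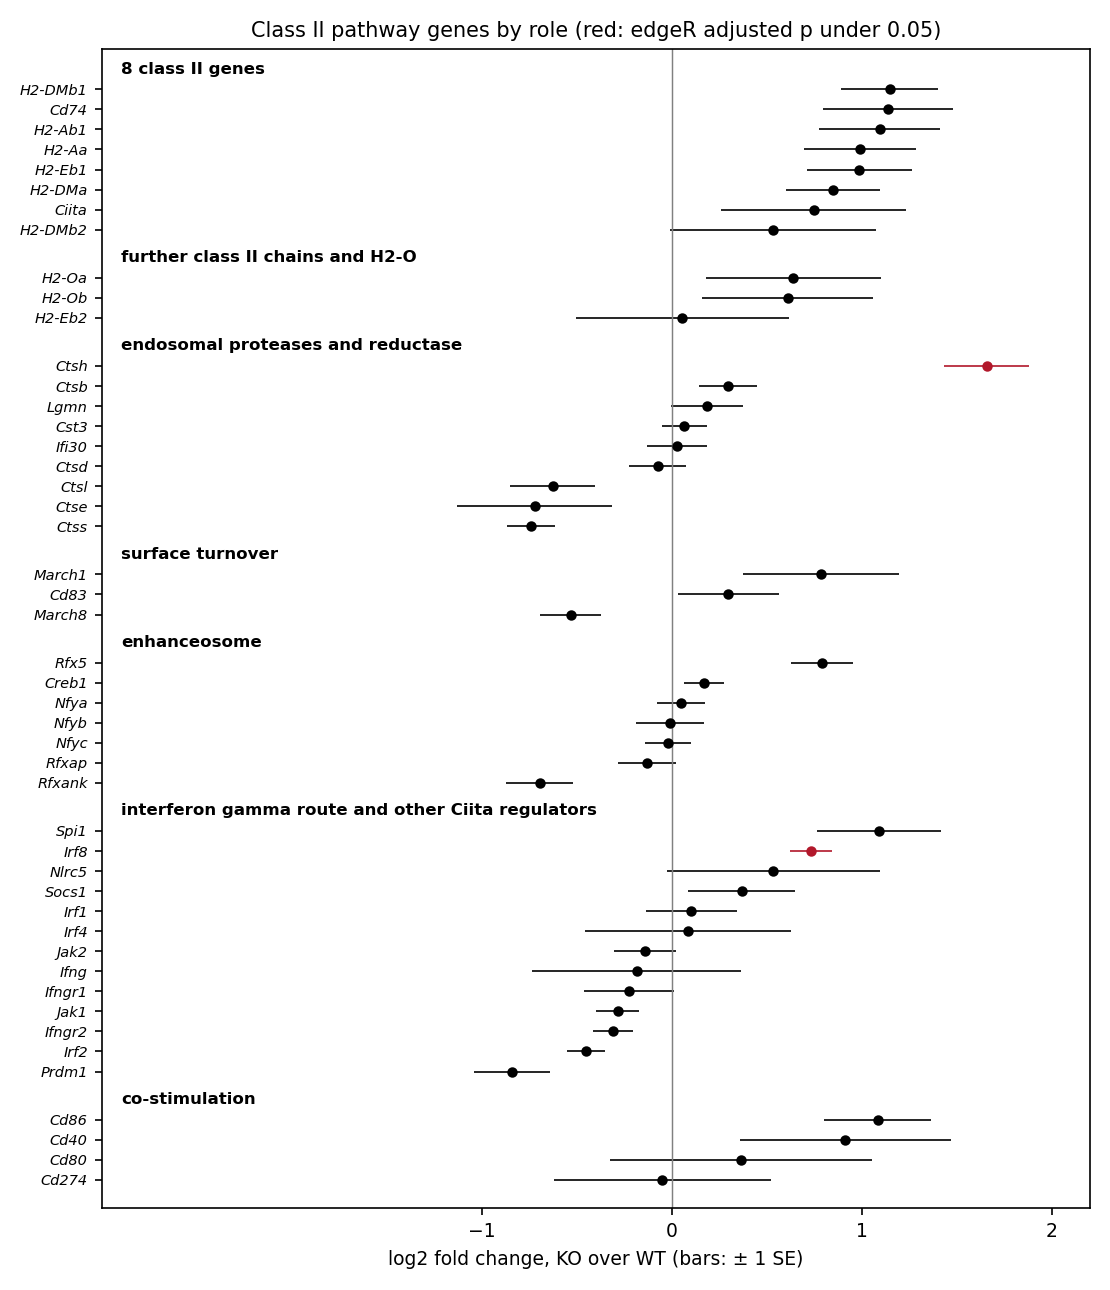
Log2 fold change of KO over WT with bars of 1 standard error for the 8 class II presentation genes and other pathway genes, grouped by role; red points passed an edgeR adjusted p of 0.05. The 8 lie between 0.53 and 1.15, while the enzymes run from -0.74 (Ctss) to 1.66 (Ctsh).

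The genes whose log2 CPM, centred on their own mean, lay closest to the mean profile of the 8 over the 4 libraries were Plek, Ctsc, Wdfy4, Evi2a, Gpsm2 and Ier3. Only tested genes averaging 5 CPM or more, and without a predicted-gene or clone-like symbol, were ranked. Their root mean square differences from it were 0.0189 to 0.0492 on the log2 scale, and those of the 8 themselves 0.049 (H2-Aa) to 0.273 (H2-DMb2). Plek, which encodes the leukocyte protein pleckstrin, was at 20.2 and 15.8 CPM in KO and 6.36 and 12.0 CPM in WT. Ctsc, which encodes cathepsin C, was at 104.6 and 80.0 CPM in KO and 33.4 and 59.9 CPM in WT. Wdfy4, required for cross-presentation by dendritic cells, was at 45.0 and 36.6 CPM in KO and 15.7 and 28.8 CPM in WT. Evi2a was at 9.58 and 7.29 CPM in KO and 2.89 and 5.51 CPM in WT. Gpsm2 was at 49.1 and 36.9 CPM in KO and 15.85 and 28.7 CPM in WT, and Ier3 at 24.65 and 18.5 CPM in KO and 8.14 and 14.4 CPM in WT.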

How the data were processed

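Per the labels' protocols, poly(A) RNA was captured with oligo-dT and made into Illumina libraries. Build mm10, RSEM 1.2.29, STAR 2.4.2a and FastQC 0.11.2 appear in the submitters' processing notes, without their roles. The authors deposited whole-number counts per gene, not normalised, judged from the values. The sources used here do not give the authors' annotation release, strandedness or any rounding.

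Genes were filtered with filterByExpr, scaled by TMM and tested with edgeR 4.0.16 in R 4.3.3 (quasi-likelihood F-test, legacy and robust options on, two-sided, Benjamini-Hochberg adjustment over all 14861 genes, threshold 0.05, 2 residual degrees of freedom). DESeq2 1.42.0, limma 3.58.1 (voom), other scalings and filters, sex as a covariate and omission of each library were the alternatives. The test was checked on simulated counts. Standard errors of log2 fold changes were taken from the fold change and the F statistic. Coordinates (1-based) and exon lengths are from GENCODE M21 on GRCm38, the assembly of mm10.

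Replicate numbers follow accession order and pair nothing. The members and lists were chosen with earlier results of these data known. The rule for other named genes takes called pathway genes and markers, the 3 most abundant tested genes of each pathway role, the most abundant marker of each cell type and the 6 nearest profiles. Rfx5, Rfxank, Prdm1, Irf1, Ifng, Brd2 and Dexi fall outside it and were chosen after their values were seen. Itgam has 2 rows, of which the more abundant was used. Some genes of the lists are not reported here by name.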

Additional observations from a re-analysis of the deposited data

How the results depend on the processing

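Of 129 fold changes of the 8 genes under alternatives, 128 kept their direction. The exception was H2-DMb2, at -0.046 without WT replicate 1 (1.534 without WT replicate 2). In 20 of them a gene newly passed the threshold. The count of the 8 called higher, 0 in the 4-library edgeR fit, was 1 with library size scaling and 1 without a filter (H2-DMb1 each time), 5 with DESeq2, 5 with sex as a covariate, and 0 to 8 on leaving out a library. Their median log2 fold change ran from 0.65 (without WT replicate 1) to 1.51 (without WT replicate 2). With library size scaling the median of all genes was 0.15 (-0.01 with TMM) and that of the 8 was 1.15 (0.99 with TMM), so the 8 lay 0.99 above all genes (1.001 with TMM).

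Over all genes, the 255 higher and 282 lower became 604 and 186 with library size scaling, 952 and 975 with DESeq2, 862 and 770 without a filter, and 696 and 713 with sex as a covariate. With upper quartile factors 416 were higher. Leaving out a library gave 0 to 1271 higher and 0 to 1019 lower, with 0 and 0 on leaving out either KO library.

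Pathway genes called higher, 2 in the 4-library fit, were 1 with relative log expression factors and 0 to 5 on leaving out a library. Those called lower, 0 there, were 2 with DESeq2, 2 without a filter, 2 with sex as a covariate, 1 with limma-voom, 1 with the legacy option off, 1 with a filter of CPM 1 in 2 libraries, and 0 to 3 on leaving out a library. The cause of these changes was not tested. No paired analysis was possible because the replicate numbers only follow accession order, while the sex covariate, read from the data, sets 1 KO beside 1 WT library of each sex. Both the 2 libraries a group and the counts limit precision, and the lowest count of any of the 8 was 52, for H2-DMb2 in WT replicate 1.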
